A study of Mus musculus with 20 samples.

Results

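Binding of p65 was compared in knockout (KO) mouse bone marrow-derived macrophages given lipopolysaccharide (LPS) for 30 min and in untreated KO control cells. The members are the peaks of 2 deposited peak lists, 43124 at 30 min and 10721 in the control, together 53845 of the 258959 peaks in the 12 lists of the series. They were chosen by their labels alone: antibody p65, genotype KO, LPS 30 min or control. Each list comes from 1 library, so no difference between 30 min and control could be tested. All intervals given are 95% intervals. For the ratio at a single site they cover counting error of the tags only. For shares and for the median ratio they treat sites or windows as independent draws. None covers variation between libraries.

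The LPS cells received 100 ng/mL for 30 min and the control cells received none. Both groups were grown from bone marrow with macrophage colony-stimulating factor and carry the same knockout, stated to be of NOS1 in the design text, although the series title speaks of SOCS1. The labels do not say how many animals gave the cells. The assay was CUT&RUN on briefly fixed cells, in which an antibody directs a nuclease to cut the DNA beside the bound protein. WT lists for the same antibody and times, the KO list at 8 h and the KO lists for SOCS1 served only for comparison.

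p65, encoded by Rela, is the NF-κB subunit that carries a strong activation domain. In a resting macrophage, IκB proteins hold it in the cytoplasm. LPS, sensed by TLR4 with CD14 and MD-2, triggers through the adaptors MyD88 and TRIF the degradation of IκBα, and p65 dimers enter the nucleus and bind κB sites at cytokine, chemokine and immediate-early genes. They also bind the genes of their own inhibitors, IκBα and A20 among them, which then end the response.

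The library at 30 min held 18.4 M tags and the control library 8.79 M. Of these tags, 15.2% lay in peaks at 30 min, against 2.55% in the control. A peak at 30 min was 222 bp wide and a control peak 352 bp, because the authors' caller set 1 width per library. The signal of a peak is its Normalized Tag Count, the tags in the peak scaled by the authors to 10000000 tags. The lowest score called was 11 tags at 30 min and 9 tags in the control, so a site missing from a list may still be bound. Less binding per cell and fewer cells with binding cannot be told apart in such libraries.

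The promoters of 11 genes are shown because they carry both a 30 min peak and a match to the κB consensus, the motif that NF-κB dimers recognise, before the start of transcription. They were drawn from the lists of NF-κB subunits, feedback inhibitors, cytokines, chemokines and interferon genes, in which 28 genes had a 30 min peak over a promoter window. Sequences are from RefSeq (GRCm38.p6, the mm10 build), 5′ to 3′ on the strand of the gene, and capitals mark the bases of the matches.
Tnip1, chr11:54962957-54963028, minus strand: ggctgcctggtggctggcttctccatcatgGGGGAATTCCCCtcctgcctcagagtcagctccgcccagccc
Nfkb2, chr19:46304668-46304736, plus strand: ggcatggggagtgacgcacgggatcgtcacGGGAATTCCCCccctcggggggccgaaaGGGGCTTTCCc
Ebi3, chr17:55952549-55952618, plus strand: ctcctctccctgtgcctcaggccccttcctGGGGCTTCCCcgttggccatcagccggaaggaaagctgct
Csf1, chr3:107760584-107760653, minus strand: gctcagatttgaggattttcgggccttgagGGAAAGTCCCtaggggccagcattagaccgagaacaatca
Rel, chr11:23771021-23771091, minus strand: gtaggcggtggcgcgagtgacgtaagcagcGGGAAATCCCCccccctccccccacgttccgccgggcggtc
Gbp5, chr3:142496827-142496896, plus strand: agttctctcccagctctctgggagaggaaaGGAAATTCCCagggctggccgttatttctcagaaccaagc
Tnip3, chr6:65590314-65590383, plus strand: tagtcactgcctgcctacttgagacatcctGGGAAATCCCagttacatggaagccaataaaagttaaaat
Il6, chr5:30013040-30013109, plus strand: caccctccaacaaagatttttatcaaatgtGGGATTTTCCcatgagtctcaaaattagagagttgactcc
Oasl1, chr5:114923196-114923239, plus strand: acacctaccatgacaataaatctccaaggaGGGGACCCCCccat
Ifnb1, chr4:88522871-88522940, minus strand: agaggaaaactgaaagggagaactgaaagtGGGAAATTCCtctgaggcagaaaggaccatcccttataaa
Cxcl3, chr5:90785998-90786068, plus strand: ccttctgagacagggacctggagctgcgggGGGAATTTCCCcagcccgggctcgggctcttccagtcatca

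The 30 min signal of the peak over these windows ran from 29.8 at Cxcl3 to 532.7 at Tnip1. Control peaks overlapped the windows of Nfkb2, Csf1 and Tnip3, with signals of 100.1, 23.3 and 29.6, and no control peak overlapped the other 8. The matches lay between 51 and 277 bp from the centre of the 30 min peak, with a median of 169 bp. At 10 of the 11 genes this placed the match outside the called peak, which reaches 111 bp to either side of its centre.

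Across the 21263 promoter windows of 17492 genes, which run from 250 bases before the start to 50 after it, 4.81% held a match to the κB consensus on either strand. The share was 5.49% (4.82 to 6.23) of the 4188 windows with a gained site and 5.53% (4.49 to 6.71) of the 1719 with a shared site. It was 2.71% (1.31 to 4.93) of the 369 windows with a lost site and 4.59% (4.26 to 4.94) of the 14987 with no site. In 4 equal groups of the windows under a 30 min peak, from the lowest to the highest signal, it was 3.42%, 5.20%, 5.84% and 7.56%. The GC content of those 4 groups was 60.6%, 60.6%, 59.9% and 58.8%. The AP-1 motif TGANTCA, which reads the same on both strands, was found in 5.42%, 4.42%, 4.56% and 4.92% of the same 4 groups, against 6.99% of all windows, so only the κB share was higher at each step. Most matches lay outside the peaks: of 516 pairs of a κB match and a 30 min peak centre within 600 bp, 20.9% were within 120 bp, against 21.8% of 395 such AP-1 pairs.

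More p65 sites were gained than lost with all called peaks, as the longer 30 min list requires. Of the 43124 peaks at 30 min, 37789 were gained, that is, overlapped no control peak by even 1 bp, or 87.6% (87.3 to 87.9). Of the 10721 control peaks, 5392 were lost, 50.3% (49.3 to 51.2), and 5329 were shared. The 30 min list was 4.02 times as long as the control list, with 2.10 times the tags. When only as many of the strongest 30 min peaks were kept as the control has, 72.6% of them were gained and 72.6% of the control peaks were lost. In lists of equal length these 2 shares are nearly equal by construction, so they cannot show whether gain exceeds loss. In WT macrophages the same comparison gave 36030 peaks at 30 min and 9643 in the control, a ratio of 3.74, with 87.9% of the 30 min peaks gained and 54.8% of the control peaks lost.

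Shared sites were the strongest class. Their median signal was 44.2 at 30 min, with quartiles of 26.6 and 78.9, and 23.3 in the control, with quartiles of 18.2 and 30.7. Gained sites had a median of 19.5 at 30 min, with quartiles of 11.7 and 35.3, and lost sites a median of 19.3 in the control, with quartiles of 15.9 and 23.9. The classes overlapped widely, but the upper tail belonged to 30 min: the highest gained site had a signal of 1955.1, while no lost site passed 113.2 and no control peak passed 169.5.

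**Figure D1:**
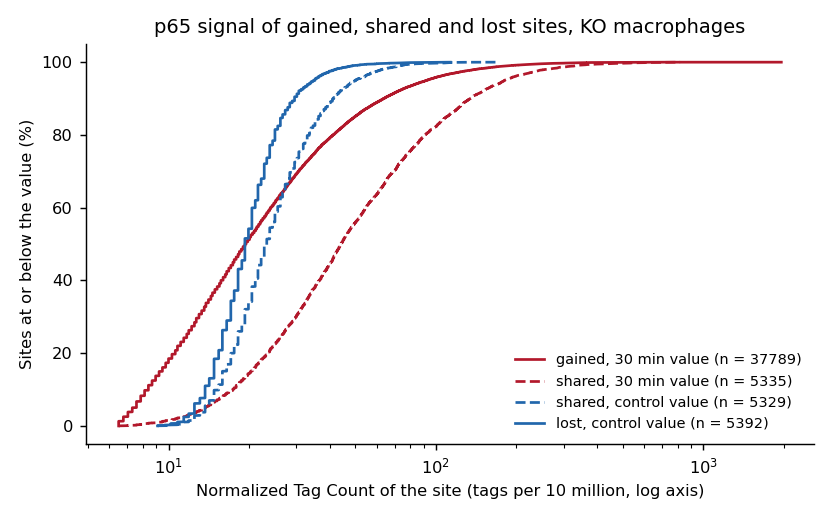
Cumulative share of sites (vertical axis, %) by Normalized Tag Count (horizontal log axis, tags per 10000000) for gained and shared sites at 30 min (red) and shared and lost sites in the control (blue), 1 library each. The shared sites at 30 min lie to the right with a median of 44.2, and gained and lost sites cross near their medians of 19.5 and 19.3.

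Shared sites lay closer to promoters than the other classes. A start of transcription lay within 1 kb of 18.1% (17.7 to 18.5) of gained sites, 35.5% (34.2 to 36.8) of shared sites and 18.3% (17.3 to 19.4) of lost sites. The median distance to the nearest start was 22.3 kb for gained, 9.07 kb for shared and 20.8 kb for lost sites. Peaks on chromosome 18, 1318 at 30 min and 310 in the control, were left out of these shares because the promoter table used has no windows there. Elsewhere too the table is incomplete, since it covers 17492 of the 21887 genes. Peaks near a start that it lacks were kept and measured to the nearest start that it has. For the peaks kept, the shares are therefore lower limits and the median distances upper limits.

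Many lost sites had a 30 min peak beside them. Within 500 bp of 1662 lost sites, or 30.8%, there was a 30 min peak that did not overlap, and 504 of these had one within 100 bp. Among gained sites, 5.92% had a control peak within 500 bp. At shared sites too the summits differed in place: the centres of the 30 min and the control peak lay a median of 79 bp apart. They were within 100 bp at 60.5% of shared sites, so some ratios at shared sites compare peaks that overlap only at their edges. The transcription factor gene Tgif1 shows the pattern: a lost control peak with a signal of 77.4 (chr17:70851897-70852249) lay beside a gained 30 min peak with a signal of 462.2 (chr17:70852421-70852643).

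At the 5329 shared sites p65 signal was mostly higher at 30 min. The median log2 ratio of 30 min to control was 0.91 (0.88 to 0.94), a 1.88-fold difference, with quartiles of 0.25 and 1.60 and a range from -2.34 to 4.77. Signal was higher at 4386 of them, 82.3%. It was at least 2-fold higher at 2471 sites, 46.4% of all shared sites, and at least 2-fold lower at 104, 1.95%. Just inside and just outside the 2-fold line lay a site beside Xpo1, the nuclear export receptor gene, with signals of 34.2 at 30 min and 17.1 in the control, and a site on chromosome 19 with 93.3 and 46.7. The median log2 ratio was 0.94 at the 1835 shared sites within 1 kb of a start in the promoter table, and 0.89 at the 3340 farther from any such start. Sites at least 2-fold lower were 0.763% of the first group and 2.60% of the second.

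**Figure D2:**
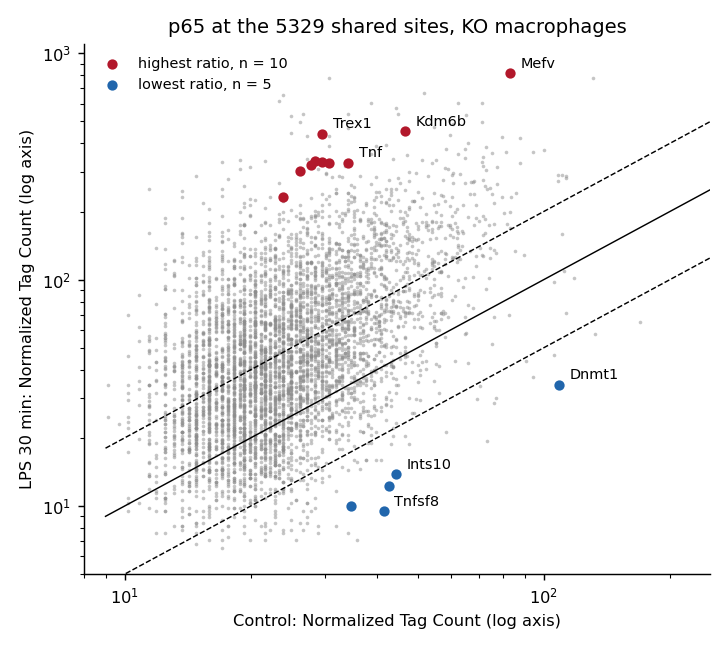
Normalized Tag Count at 30 min (vertical log axis) against control (horizontal log axis) at the 5329 shared sites. The solid line marks equal signal and the dashed lines 2-fold differences; red points are the 10 named sites with the highest ratio and blue points the 5 with the lowest, and most sites lie above the solid line.

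The 10 sites with the highest ratio, among 1789 shared sites with at least 20 control tags and a linked gene, were led by one at Trex1, which encodes a DNA exonuclease that limits sensing of self DNA. That site, which also lies near Atrip and Shisa5, had a signal of 442.1 at 30 min and 29.6 in the control, a 14.9-fold difference (10.1 to 23.0). Next in order were Nfkbiz, the site at Aurkb and Borcs6, and Nfkbie. The site at Nfkbiz, which encodes the nuclear IκB protein IκBζ, had 332.8 at 30 min and 28.4 in the control, 11.7-fold (7.84 to 18.2). The site at Nfkbie, the gene of IκBε, had 320.1 at 30 min and 27.9 in the control, 11.5-fold (7.55 to 17.5).

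The shared site linked to both Tnf and Lta, genes of related cytokines, had a signal of 328.7 at 30 min and 34.1 in the control, 9.64-fold (6.68 to 14.4). Mefv, the gene of the inflammasome protein pyrin, had the strongest shared site of all, 817.8 at 30 min and 83.1 in the control, 9.84-fold (7.78 to 12.6). Kdm6b encodes a histone H3K27 demethylase induced in macrophages by LPS, and its site had 451.9 at 30 min and 46.7 in the control, 9.68-fold (7.08 to 13.6). The other 4 sites lay at Aurkb and Borcs6, at Batf, an AP-1 family gene, at Gpr65, a proton-sensing receptor gene, and at Has1, a hyaluronan synthase gene. Their ratios were 11.5, 11.2, 10.7 and 9.72. The control counts behind these ratios were 21.0 to 73.0 tags, which sets the width of the intervals. By the depth-scaled findPeaks score, which counts at most 1 tag per bp, these 10 sites were also higher at 30 min but by less, from 3.80-fold at Mefv to 5.12-fold at Tnf and Lta, and Trex1 was 3.86-fold higher. All 10 score ratios lay below the intervals given for the signal, and their order differed.

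The 5 sites with the lowest ratio carried weaker signals at 30 min. The site at Tnfsf8, a TNF family ligand gene, had 9.49 at 30 min and 41.5 in the control, a ratio of 0.229 (0.119 to 0.411). The site linked to Dnmt1, the maintenance DNA methyltransferase gene, and to S1pr2 had 34.4 at 30 min and 108.7 in the control, 0.316 (0.224 to 0.434). Its 30 min peak (chr9:20961761-20961983) and control peak (chr9:20961427-20961779) overlapped only at their edges. Sites at Mogat2, Fbp1 and Ints10 had ratios of 0.286, 0.288 and 0.311. By the findPeaks score scaled to depth, which ignores repeated tags at a base, the ratios of these 5 sites were 0.331 at Tnfsf8, 0.437 at Mogat2, 0.477 at Fbp1, 0.611 at Ints10 and 0.628 at Dnmt1, and the number of shared sites at least 2-fold lower was 12 in place of 104.

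Peaks were linked to genes by distance, a peak centre within 10 kb of either end of the gene, which names neighbours and not targets. Of 21887 protein-coding genes, 13743 (62.8%) had a 30 min peak and 6891 (31.5%) a control peak. A 30 min peak without a control peak was found at 7158 genes (32.7%) and the opposite at 306 (1.40%). Among the 6585 genes with both, the strongest 30 min peak exceeded the strongest control peak at 5848, or 88.8%. Because the lists differ in length, genes were also counted with only the 10721 strongest 30 min peaks, as many as the control has: 6250 genes (28.6%) then had a 30 min peak, fewer than the 6891 with a control peak.

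Against those shares, the lists of inflammatory genes stood at or near full coverage. All 5 NF-κB subunit genes and all 16 genes of IκB proteins and feedback inhibitors had a 30 min peak, and all 21 still did among the 10721 strongest. In the control, 4 of 5 and 14 of 16 had a peak. All 20 cytokine genes had a 30 min peak, 18 of them among the strongest, and 13 had a control peak. Of 23 AP-1 and immediate-early genes these numbers were 23, 20 and 18, and of 18 chemokine genes 18, 13 and 11. Coverage was also high in the housekeeping list: of 15 genes, 15 had a 30 min peak, 10 one of the strongest and 8 a control peak. No gene of any list had a control peak and no 30 min peak. Full coverage did not hold in every list with peaks at least 8-fold over the local region: 30 min peaks were then linked to all 5 subunit and all 20 cytokine genes, but to 13 of 16 feedback, 16 of 23 immediate-early, 11 of 18 chemokine, 9 of 20 macrophage and 9 of 15 housekeeping genes.

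**Figure D3:**
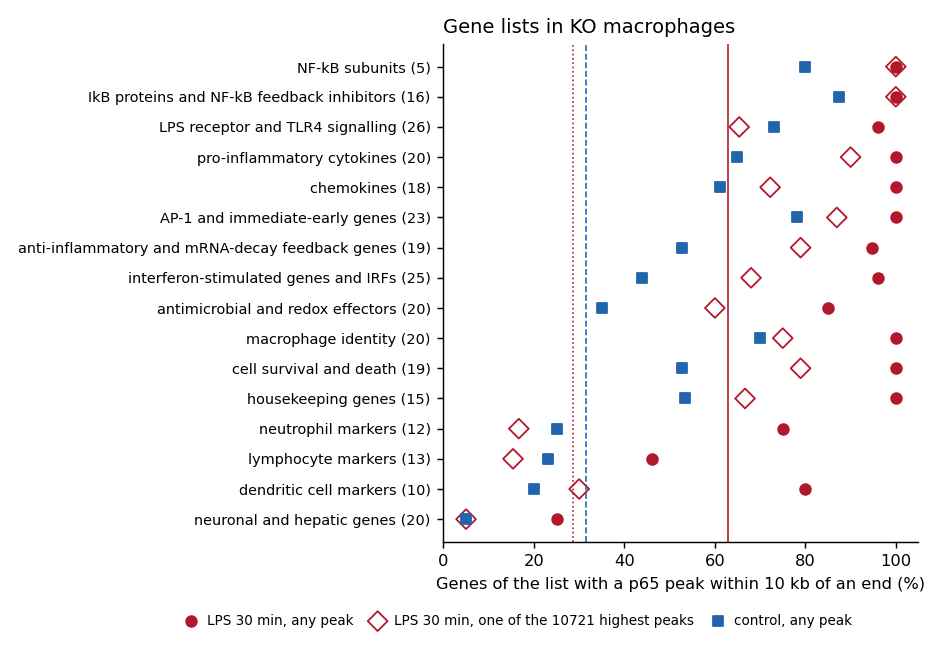
Share of each gene list (vertical axis, members found in parentheses) linked to a p65 peak by the distance rule (horizontal axis, %), for all 30 min peaks (red circles), the 10721 strongest 30 min peaks (open diamonds) and control peaks (blue squares). Vertical lines give the same shares over all 21887 genes, 62.8% (solid red), 28.6% (dotted red) and 31.5% (dashed blue); both NF-κB lists keep 100% among the strongest 30 min peaks.

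Among the subunits, Nfkb2, the gene of p100 and p52, had the strongest site, 373.2 at 30 min and 100.1 in the control at an overlapping position, 3.73-fold (2.98 to 4.71). By the depth-scaled findPeaks score it was 1.86-fold. Of the ratios given here and below for the gene lists, only that at Nlrp3 was larger by this score, 2.77-fold. The others were smaller, such as 2.26-fold at Nfkbib, 2.28-fold at Ebi3 and 2.75-fold at Tgfb1, and most lay below the interval given. Relb, the partner of p52, had 4 gained sites, the strongest with a signal of 290.2 at 30 min, against a control peak of 25 at another position. Rel, which encodes c-Rel, had 145.9 at 30 min and a lost control peak of 35.8. Rela itself had 2 shared sites, the stronger with 89.8 at 30 min and 36.4 in the control, 2.47-fold (1.69 to 3.73). The 30 min peak (chr19:5636856-5637078) and the control peak (chr19:5637070-5637422) of that site overlapped only at their edges. Nfkb1, the gene of p105 and p50, had 5 gained sites of at most 56.1 and no linked control peak. The subunit genes differed widely in signal at 30 min. The 4 with a linked control peak were higher at 30 min, as were 88.8% of all genes with both peaks, and with peaks inside gene bodies counted Nfkb1 too had a control peak.

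Among the feedback genes, Tnip1, the gene of the A20-binding protein ABIN-1, had the highest 30 min signal, 532.7 (chr11:54963021-54963243, centred 192 bp before the start), while its only control peak, at another position, had 30.7. Nfkbib, the gene of IκBβ, had 339.0 at 30 min and 51.2 in the control, 6.62-fold (4.89 to 9.17). Nfkbia, the gene of IκBα, had 214.6 at 30 min, centred 395 bp before the start, and a lost control peak of 57.5. Tnfaip3, the gene of A20, had 1 linked site, gained, with 89.5, and no control peak.

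The remaining members ranged down to 59.1 at 30 min. Zc3h12a, the gene of the ribonuclease Regnase-1, had 317.1 at 30 min and 71.7 in the control at an overlapping site, and Traf1, an adaptor of TNF receptors, had 225.4 and 39.3. The nuclear IκB genes Nfkbid and Bcl3 had 225.1 and 100.6 at 30 min, against 60.3 and 54.6 in the control. N4bp1, a ubiquitin-binding inhibitor, had 178.5 at 30 min and 21.6 in the control. Otulin, the gene of a deubiquitinase of linear chains, had 170.9 at 30 min and 22.8 in the control, and Cyld, another deubiquitinase gene, had 74.9 and 35.3. Tnip2 had 99.5 at 30 min with no control peak, Tnip3 had 93.8 against 29.6, and Birc3, a ubiquitin ligase gene, had 59.1 against 17.6. The 14 genes with a peak in both lists were all higher at 30 min, as were 88.8% of all such genes and all 8 such housekeeping genes.

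**Figure D4:**
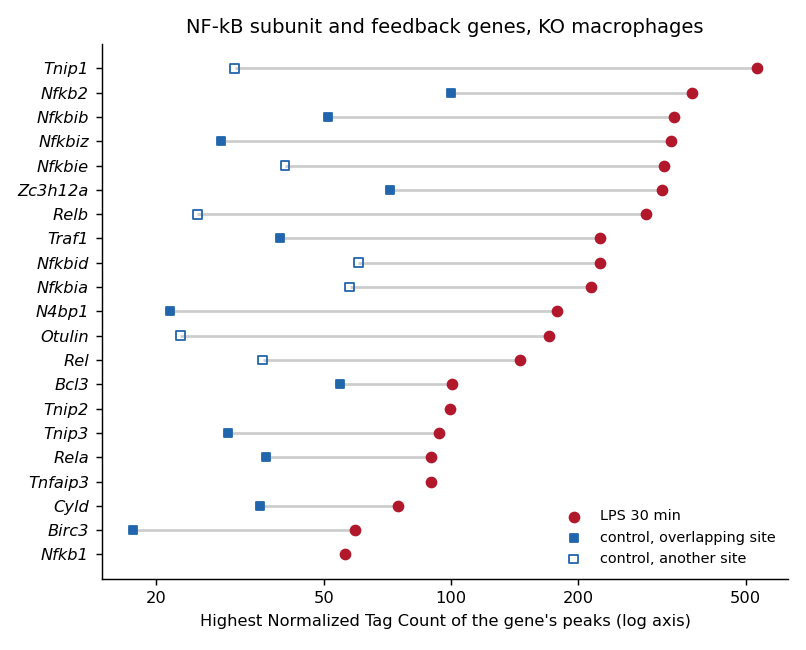
Highest Normalized Tag Count of the peaks linked to each NF-κB subunit and feedback gene (horizontal log axis) at 30 min (red) and in the control (blue, filled where the control peak overlaps the 30 min peak, open where it lies elsewhere). Every gene with both peaks is higher at 30 min, and Tnfaip3, Tnip2 and Nfkb1 have no linked control peak.

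Of 26 genes of the LPS receptor and its signalling chain, 25 had a 30 min peak, 17 one of the strongest, and 19 a control peak. Over all genes these shares were 62.8%, 28.6% and 31.5%. Lbp, a serum protein gene expressed in liver, had no peak in either list. Cd14, the co-receptor gene, led with a gained site of 435.6 (chr18:36733764-36733986), against a lost control peak of 31.3. The shared sites with the highest 30 min signal were at Traf3, a ubiquitin ligase gene of the TRIF branch, with 234.9 at 30 min and 41.0 in the control, at Ticam1, the gene of TRIF, with 214.6 and 43.8, and at Map3k8, the gene of the kinase Tpl2, with 164.6 and 63.7. Their ratios were 5.73 (4.08 to 8.30), 4.90 (3.56 to 7.13) and 2.58 (1.93 to 3.49). The 6 genes with a peak only at 30 min were weaker: Tirap 78.9, Tab2 43.7, Map3k7 24.1, Chuk 21.4, Irak1 14.9 and Tab3 11.9. Tab1 had a lower signal at 30 min, 30.1, than in the control, 37.0, at another position.

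Every one of the 20 cytokine genes had a p65 site at 30 min, with a median of 150.55 for the strongest site per gene, and the 13 with a control peak had a control median of 28.4. Il27, which encodes a subunit of IL-27, had 3 gained sites, the strongest with 348.0, and no control peak. Ebi3, the gene of its partner subunit, had a shared site with 249.8 at 30 min and 46.7 in the control, 5.35-fold (3.88 to 7.55), besides the gained promoter site with 224.9 shown above. Il1b and Il12b, classic p65 targets, had 206.1 and 153.5 at 30 min, against 23.9 and 27.3 in the control at other positions. Csf1, the gene of macrophage colony-stimulating factor, had a site at its start with 179.8 at 30 min and 23.3 in the control, 7.72-fold (5.03 to 13.1).

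The other cytokine genes with a peak only at 30 min had lower signals than Il27. They were Csf3 with 91.4, Il1a with 81.6, Csf2 with 75.7, Il6 with 74.3, Lif with 29.6 and Il12a with 13. The Il6 site was centred 109 bp past the start. Signal at 30 min thus differed widely among genes of related function.

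Among chemokine genes the highest 30 min signal was at a site shared by the neighbours Ccl3 and Ccl4, whose products attract monocytes and T cells. It had 315.7 at 30 min and 19.9 in the control, 15.9-fold (10.1 to 28.2). By the depth-scaled score it was 6.44-fold. Its control peak held 17.5 tags, fewer than the 20 required of the ranked sites above. The 30 min peak (chr11:83640614-83640836) and the control peak (chr11:83640782-83641134) of that site overlapped only in part. Cxcl16 had 273.1 at 30 min and 68.3 in the control, 4.00-fold (3.05 to 5.31). The neutrophil chemokine genes Cxcl1 and Cxcl2 had 198.8 and 221.1 at 30 min, against 19.3 each in the control at another position. Ccl2 had 228.1 at 30 min and a lost control peak of 23.3, and Ccl5 had 191.5 and 28.4 at an overlapping site. The genes with a peak only at 30 min ranged from Cxcl5 with 8.14 to Ccl12 with 122.9, and Cxcl9 had 48.0, Cxcl3 29.8, Ccl17 23.6 and Ccl22 16.8. All 11 chemokine genes with both peaks were higher at 30 min, against 88.8% of all such genes.

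All 18 AP-1 and immediate-early genes with both peaks were higher at 30 min, near the 88.8% of all such genes, with a list median of 81.6 at 30 min and 29.6 in the control. Egr2, a zinc finger transcription factor gene, had a gained site 41 bp from its start with 219.4, and Fos had one 173 bp before its start with 128.0, both with no control peak. Myc, Atf4 and Egr3 also had a peak only at 30 min, with 65.1, 53.4 and 34.2. Shared sites lay at Ier3, a stress response gene, with 152.7 at 30 min and 37.0 in the control, at Fosb with 147.3 and 37.6, and at Jund with 127.8 and 26.7. Their ratios were 4.13 (2.82 to 6.01), 3.92 (2.73 to 5.82) and 4.79 (3.18 to 7.87).

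Genes that restrain inflammation were covered nearly as fully, 18 of 19 at 30 min, 15 among the strongest sites and 10 in the control. The same shares over all genes were 62.8%, 28.6% and 31.5%. Nlrp12 had no peak. Tgfb1, the gene of an anti-inflammatory cytokine, had 393.6 at 30 min and 42.1 in the control, 9.35-fold (6.72 to 13.4). Dusp1, a phosphatase gene of the MAP kinase pathway, had 303.5 at 30 min and 22.8 in the control at another position. Zfp36, which encodes the mRNA decay factor tristetraprolin, had 270.7 at 30 min and 34.1 in the control, also at another position. Socs3, an inhibitor of cytokine receptor signalling, had 162.2 at 30 min and 20.5 in the control at an overlapping site, 7.91-fold (4.92 to 13.5). That control peak held 18.0 tags. Socs1, of the same family, had 3 gained sites of at most 59.1, the strongest centred 284 bp before the start, and no control peak. Il4i1, an amino acid oxidase gene, had a shared site with 135.9 at 30 min and 34.7 in the control, 3.92-fold (2.73 to 6.04). Il10 had 50.2 at 30 min and a lost control peak of 17.1. Among the genes with a peak only at 30 min, Rgs1 had 94.9, Dusp2 93.0, Zfp36l2 90.9 and Il1rn, the gene of the IL-1 receptor antagonist, 90.1.

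Interferon genes had lower signals: the median at 30 min was 49.2, against 25 in the control. A peak only at 30 min was found at 13 of 25, against 32.7% of all genes. Irf1, a transcription factor gene that p65 is known to bind, had the highest signal, 250.6 at 30 min and 44.4 in the control, 5.64-fold (4.07 to 8.05). Irf3 and Irf9 had shared sites with 158.1 and 86.3 at 30 min, against 71.7 and 18.2 in the control. Stat2 and Gbp2 had gained sites only, with 160.6 and 128.0, and Ifnb1, the gene of interferon β, had 4 gained sites of at most 46.7. The antiviral genes Ifit1, Oasl1 and Usp18 had 59.9, 49.6 and 48.3, likewise with no control peak. Irf7 went the other way, with 46.4 at 30 min and 105.8 in the control at an overlapping site. Ifi44 had no peak.

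Of 20 antimicrobial and redox genes, 17 had a 30 min peak and 7 a control peak, against 62.8% and 31.5% of all genes. Slc11a1, a metal transporter gene of the phagosome, had 348.5 at 30 min and 32.4 in the control at another position. Acod1, the gene of the enzyme that makes itaconate, had 4 gained sites, the strongest 119 bp past the start with 187.7. Lcn2, Sod2 and Ptgs2 had gained sites with 157.6, 135.3 and 127.2 and no control peak, while Nos2, the inducible nitric oxide synthase gene, had 22.8. The NADPH oxidase genes Ncf1 and Ncf4 had shared sites with 154.3 and 125.6 at 30 min, against 47.8 and 60.3 in the control, and Cybb had none. Srxn1, a peroxiredoxin repair gene, had 50.7 with no control peak. Slc11a1 also had a shared site, with 108.2 at 30 min and 32.4 in the control, 3.34-fold (2.27 to 5.23). The 30 min peak (chr1:74386974-74387196) and the control peak (chr1:74386663-74387015) of that site overlapped only in part.

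Among 19 genes of cell survival and death, all had a 30 min peak and 10 a control peak, against 62.8% and 31.5% of all genes. The BCL2 family gene Mcl1 had 374.3 at 30 min, and Bcl2l1 had 114.2, both with no control peak. Cflar, which encodes an inhibitor of caspase-8, had 160.0 at 30 min and 41.0 in the control, 3.90-fold (2.76 to 5.69), and the inflammasome gene Nlrp3 had 120.7 and 45.5, 2.65-fold (1.88 to 3.80). Birc2, a ubiquitin ligase gene, had a shared site with 80.3 at 30 min and 23.3 in the control, 3.45-fold (2.20 to 5.94), and Gsdmd, the gene of the pore protein gasdermin D, had 104.7 with no control peak. Ripk1 had nearly equal values, 31.2 at 30 min and 33.0 in the control, in peaks that overlapped only at their edges. Bcl2a1d and Bcl2a1b, with 208.3 and 94.9, are near-identical copies among which reads may be split, as may those of Lyz1 and Lyz2.

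All 20 genes that define macrophages had a 30 min peak and 14 a control peak, with medians of 76.25 and 23.9. Such peaks were found at 62.8% and 31.5% of all genes. Tfec and Csf1r had 147.0 and 86.8 at 30 min, against 19.3 and 22.8 in the control at other positions, and Adgre1, the gene of F4/80, had 83.3 with no control peak. Runx1, Mitf, Mertk and Cd163 had 77.6, 67.5, 65.6 and 28.2, also with no control peak. Shared sites at Ctsb, Fcgr1 and Cebpa had 79.7, 74.9 and 54.5 at 30 min, against 26.2, 41.0 and 16.5 in the control. Cd68 was lower, 52.9 at 30 min, against a lost control peak of 70.5. Housekeeping genes had a median of 45.6 at 30 min and 21.9 in the control, below the inflammatory lists at 30 min, and B2m had 134.3 and 85.3 at the same site, 1.57-fold (1.21 to 2.07). At a shared site Gapdh had 45.6 at 30 min and 22.2 in the control. Gusb, Rpl13a, Sdha, Ppia and Rps18 had 56.7, 50.5, 44.8, 43.9 and 34.7, with no control peak.

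With all called peaks at 30 min, genes of other cell types were covered less than macrophage and housekeeping genes. With peaks at least 8-fold over the local region this order did not hold. Then 9 of 12 neutrophil and 6 of 10 dendritic cell genes had a 30 min peak, against 9 of 20 macrophage and 9 of 15 housekeeping genes. The lymphocyte list, with 5 of 13, and the neuronal and hepatic list, with 5 of 20, stayed below both. Of all genes, 62.8% had a 30 min peak, 28.6% one of the strongest and 31.5% a control peak. The neutrophil and dendritic cell lists, at 75% and 80%, lay above the first share. The neuronal and hepatic list, at 25%, and the lymphocyte list, at 46.2%, lay below it. Of 20 neuronal and hepatic genes, 5 had a 30 min peak and 1 a control peak, and of 13 lymphocyte genes 6 and 3, with Cd3e, Cd8a and Pax5 among those at none. Of 12 neutrophil genes 9 had a 30 min peak and 3 a control peak, but only 2 had one of the strongest sites. Of 10 dendritic cell genes 8 had a 30 min peak and 2 a control peak, and the site near Xcr1 reached 367.5. The highest neutrophil gene was Mmp8, with 120.4 at 30 min and a lost control peak of 18.2. Ltf had 49.6, S100a8 27.7, Camp 20.3 and Ctsg 16.5 among neutrophil genes, and Gfap 37.2, Fgb 19.8, Syp 17.4 and Grin1 7.87 among neuronal and hepatic genes, each of these 8 with no control peak. The neighbours Cd3d and Cd3g had a gained site with 64.3, Cd79b had 16, and the dendritic cell genes Ccr7, Itgax, Clec9a, Batf3 and Flt3 had 71.6, 64.6, 36.1, 34.7 and 24.4. At shared sites, Elane and Prtn3 had 19.3 at 30 min and 16.5 in the control, Cd79a had 18.2 and 17.6, Zbtb46 had 29.8 and 39.3, and Slc17a7 had 176.0 and 81.9. Peaks near a gene do not measure its expression, and a peak can be linked to several genes, so these counts check the cells only in part.

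Of the 20 highest p65 sites at 30 min, 6 were linked to a gene by the distance to a gene end, which leaves out sites deep inside a gene. The highest of all had a signal of 1955.1 (chr11:43385279-43385501), was gained, and had no end of a protein-coding gene within 10 kb. It lay 10929 bp from the hairpin of Mir146, whose product miR-146a is a known NF-κB-induced inhibitor of IRAK1 and TRAF6, and is shown here because the strongest site lies beside it. Its mature sequence from RefSeq (GRCm38.p6, minus strand), with the seed, bases 2 to 8, in capitals, is:
mmu-miR-146a-5p: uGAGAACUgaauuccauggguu

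In WT this strongest site had 1137.6 at 30 min and 125.5 in the control list. The next highest, 1372.5 (chr10:19078013-19078235), was also gained with no linked gene, and had 961.6 in WT at 30 min with no WT control peak. Of the 20 highest 30 min sites 10 were gained, and of the 1000 highest 507 were linked and 608 gained. The sites that were not gained overlapped a control peak.

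Of the 10 strongest gained sites with a linked gene, all were also called in WT at 30 min, 9 in KO at 8 h and 5 in the WT control. They included Dglucy with 711.2, and Nod2, the gene of a sensor of bacterial peptidoglycan, with 708.2 (chr8:88650242-88650464), against 543.5 and 535.6 in WT. They also included Txlnb with 646.6, a site near Orai2 and Prkrip1 with 585.1, Klhl25 with 547.1, a site near Pilra and Zcwpw1 with 403.3, Tnip1, Tgif1, Cd14 and Il10rb, the gene of a receptor chain for IL-10, with 413.1. The Cd14 site was the one not called in KO at 8 h. The 5 called in the WT control were Dglucy with 59.8, Orai2 and Prkrip1 with 53.3, Txlnb with 46.8, Klhl25 with 36.4 and Pilra and Zcwpw1 with 28.6. The greatest numbers of gained sites, 8 each, lay at Dnajb12 and Trim7, and 13 genes had 7, among them Maff, an immediate-early gene, and Cd274, the gene of PD-L1.

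The strongest lost sites were weaker. The site near Amdhd2, Atp6v0c and Tbc1d24 had a control signal of 103.0, that at Kctd21 had 100.1, and that at Ddx54, Iqcd and Rita1 had 98.4. None of them overlapped a 30 min peak, yet the first was called in KO at 8 h with 219.6 and the second with 299.1. The other 7 had control signals of 77.4 at Tgif1, 75.1 at Ctns and Shpk, 74.0 each at Ahnak and Acap2, 70.5 at Cd68, 67.7 at Sec14l1 and 66.6 at Mob3a. Of these 10 lost sites 5 were called in WT at 30 min, Ahnak with 154.6, Ctns and Cd68 with 110.7 each, Kctd21 with 108.8 and Mob3a with 51.8.

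Gained sites were called more often than lost sites in the other lists of LPS-treated cells, but not in the control lists. Of gained sites 51.2% (50.7 to 51.7) overlapped a p65 peak of WT at 30 min, 34.8% (34.3 to 35.3) one of KO at 8 h and 8.76% (8.47 to 9.05) one of the WT control. Of lost sites these shares were 14.2% (13.3 to 15.2), 17.1% (16.1 to 18.1) and 9.53% (8.76 to 10.3). Of shared sites, they were 74.5% (73.3 to 75.6), 55.9% (54.6 to 57.3) and 25.4% (24.2 to 26.6). At least 1 other p65 list held 70.2% of gained and 34.0% of lost sites. SOCS1 peaks of KO cells at 30 min overlapped 24.1% of gained, 56.1% of shared and 14.6% of lost sites. Whether NOS1 or SOCS1 is knocked out is unclear, so whether these peaks mark SOCS1 protein cannot be told.

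**Figure D5:**
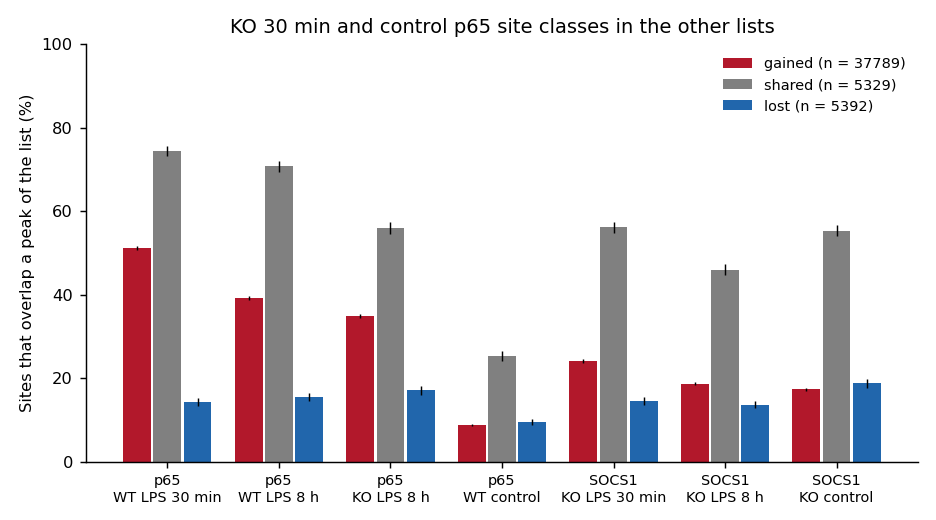
Share of gained, shared and lost sites (vertical axis, %) called in each other peak list, with exact 95% binomial intervals that treat sites as independent draws. Shared sites are called most often in every list, and the share of gained sites in the WT 30 min list, 51.2%, exceeds that of lost sites, 14.2%.

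Recurrence followed signal. In 4 equal groups of gained sites from the lowest to the highest signal, 21.1%, 45.1%, 61.8% and 76.7% were called in WT at 30 min. In 4 such groups of lost sites, ordered by control signal, 5.04%, 6.68%, 7.27% and 19.1% were called in the WT control. Both series were higher at each step.

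At 1024 sites called in all 4 p65 lists of KO and WT, LPS 30 min and control, the direction was the same in both genotypes at 906, or 88.5%. The median log2 ratio was 1.04 in KO and 1.18 in WT, and across sites, which are not independent replicates, Spearman's rho was 0.72. Of the 889 sites higher at 30 min in KO, 31 were lower in WT, while of the 132 lower in KO, 48 were lower in WT. Of all 104 sites at least 2-fold lower in KO, 40 were called in WT at 30 min, against 2041 of the 2471 at least 2-fold higher. In the WT control 24 and 614 of them were called, 23.1% and 24.8%. Both groups were chosen by their KO signal at 30 min, and recurrence followed signal. The 30 min difference therefore cannot show how well each group repeats. Of the 15 of these 104 called in both WT lists, 12 were lower at 30 min in WT too.

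Nos1, the gene that the design text names as knocked out, had 3 linked sites at 30 min, all gained. The strongest had a signal of 137.8 (chr5:117872377-117872599), centred 5649 bp past the start, and 6 sites lay over the gene or within 10 kb of it, against 0 in the control. A p65 peak says nothing of whether the gene is deleted.

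Of 1005 microRNA hairpins, 471 had a 30 min peak within 10 kb, 218 had a control peak and 269 (26.8%) had one only at 30 min. The named hairpins were chosen after their values were seen. Mir146 itself had a linked site with 57.5 at 30 min and 20.5 in the control, Mir223 had 57.5 and 19.3, and Mir125a had 232.2 and 23.9. Mir21a had 3 sites at 30 min of at most 121.5 and none in the control, and Mir155 had none within 10 kb, the nearest lying 11028 bp away with 81.6.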

How the data were processed

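CUT&RUN peak lists for p65 were analysed, 1 library per group, so each comparison is a description with no test between groups. Per the submitters' processing notes and the file headers, reads were handled with cutadapt, Bowtie2 2.4.1 and HOMER 4.11 on mm10, and peaks were called for each library against IgG of the same genotype and treatment (false discovery rate 0.001, 4-fold over IgG at a Poisson p of 0.0001, 4-fold over the surrounding 10 kb, at most 1 tag per bp). The authors' Normalized Tag Count is a signal, tags scaled to 10000000 per library. The deposited findPeaks score is a tag number not scaled to depth, the deposited fold values are ratios over IgG or the local region, and the authors' focus ratio is a fraction of tags. A spike-in named in the labels was not used here.

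Sites overlapping by 1 bp were called shared. The ratio at a shared site is the 30 min over the control Normalized Tag Count, with an exact interval from the tags. Genes (21887 protein-coding, RefSeq GRCm38.p6) were linked where either end lay within 10 kb of a peak centre, promoters were windows of 250 bases before to 50 after a start, and motifs were searched on both strands. Named genes were the 10 highest and 5 lowest ratios at linked shared sites with at least 20 control tags, the 10 strongest linked gained and lost sites, every NF-κB subunit and feedback gene, in each other list up to 5 genes with no control peak and up to 3 shared sites by 30 min signal, the genes with the most gained sites, and Nos1. Other list members named, such as Cd14, Il1b and Irf7, were chosen after their values were seen. Members and lists were chosen with earlier results of these data known. Steps were tested on simulated data, in Python 3.11.15 with pandas 2.3.3 and scipy 1.17.1. Alternatives covered peak stringency, list length, overlap, signal scale and link distance. Some items that the rule names are not reported here.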

Additional observations from a re-analysis of the deposited data

How the results depend on the processing

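No median changed sign, and no ratio changed direction at the sites ranked as highest and lowest by ratio. Named sites with a ratio near equality were less stable. At the shared site of Zbtb46 the ratio of 30 min to control was 0.758 by signal. It was 1.04 by the depth-scaled score and 1.20 per bp of peak width. At equal list length gained no longer exceeded lost sites, and fewer genes had a 30 min peak (6250) than a control peak (6891). The gained share of 30 min peaks, 87.6%, was 88.9% with peaks at least 8-fold over the local region, 86.0% with a common minimum signal, 72.6% with lists of equal length, 89.5% with overlap of 50% of the shorter peak and 92.5% with centres within 100 bp. Of 2 alternatives chosen after seeing the data, a depth-scaled score minimum gave 84.8% and counting peaks up to 500 bp apart as shared gave 82.4%. The lost share, 50.3%, was 58.2% (8-fold), 72.6% (equal length), 57.7% (overlap), 69.9% (centres), 51.6% (score minimum) and 34.8% (500 bp). The ratio of list lengths, 4.02, was 3.78 (8-fold), 3.53 (common minimum), 3.19 (score minimum) and 1 by construction at equal length. The median log2 ratio at shared sites, 0.91, was 0.97 (8-fold), 1.51 (equal length) and 1.58 per bp of peak width. Sites at least 2-fold higher, 2471, numbered 1320 (8-fold), 1511 (centres) and 3855 (per bp). Sites at least 2-fold lower, 104, numbered 45 (8-fold), 68 (common minimum), 4 (equal length), 60 (centres), 14 (per bp) and 12 (depth-scaled score). Newly linked genes, 7158, numbered 2018 at equal length. Gained sites called in WT at 30 min, 51.2%, were 50.2% (8-fold) and 47.3% (centres), and lost sites, 14.2%, were 10.0% and 9.83%. Equal length, stricter peaks and stricter overlap keep fewer sites by construction, and for the other changes the cause was not tested.

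Of 192 counts over the gene lists under alternatives, 170 stayed within 1.5 times; with 8-fold peaks the 30 min counts of chemokine, macrophage and housekeeping genes, 18, 20 and 15, were 11, 9 and 9. Of 30 alternative ratios at the shared sites ranked as highest and lowest by ratio, 9 stayed within the counting interval and 0 changed direction. Other named shared sites, such as Zbtb46, were not part of this count. No paired analysis was possible because each group has 1 library and the labels give no replicate numbers. The median peak held 39.4 tags at 30 min and 18.5 in the control, which limits the control values most. IgG tags were at the caller's floor in 37.2% of peaks at 30 min and 91.4% in the control.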
